A study of Homo sapiens with 8 samples.

Results

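Small RNAs were compared between H1 human embryonic stem cells homozygous for the Dicer substitution S1344L and wild-type cells of the same established line, across all 594 mature miRNAs of the table. The libraries were chosen by genotype as labelled: 2 homozygous and 2 wild-type libraries, which are 4 of the 8 libraries of the series. The other 4 libraries, from cells hemizygous for S1344L and from Dicer-null cells, entered a single alternative fit. Per the series' text the S1344L cells were engineered with CRISPR-Cas9; it is not stated whether a genotype is 1 clone or several. The labels call the RNA samples biologically independent without saying what separates them, so p-values measure the spread between these samples. Reads of DICER1 itself are no part of a miRNA table, so the genotypes rest on the labels.

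Dicer cuts the hairpin of a precursor miRNA near its loop and releases a 5p arm and a 3p arm. Its RNase IIIb domain cuts on the side of the 5p arm and its RNase IIIa domain on the side of the 3p arm, and one of the arms, the guide, is usually kept by Argonaute while the other, the passenger, is discarded. The replaced serine lies in the RNase IIIa domain and is mutated recurrently in tumours, as are metal-binding residues of RNase IIIb. The comparison asks how the set of miRNAs changes in cells whose Dicer carries S1344L on both alleles.

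The 2 wild-type libraries held 2680973 and 2725756 miRNA reads and the 2 homozygous libraries 2289926 and 1814568. Levels are given as RPM, reads per 1000000 of the scaling total behind the deposited values; the miRNA reads were between 2.09 and 2.43 times that total. One read corresponded to between 0.779 and 1.20 RPM, and a count of 0 allows up to 3 reads, or 2.34 to 3.61 RPM, for counting error only. Markers of pluripotent cells, the 3p arms of miR-302a to d and of miR-367, miR-371a, miR-372 and miR-373, held 39.7% and 38.0% of the miRNA reads in the wild type and 48.7% and 49.7% in homozygous cells. Neural markers (miR-124-3p, miR-9-5p and miR-9-3p) held 0.795% and 0.635% against 1.17% and 1.07%, a difference whose part in the results below was not tested. Their log2 changes were 0.77, -0.69 and 1.78 in that order, so the 2 arms of miR-9 moved apart. The 8 pluripotent markers are all 3p arms. In such sums a change in cell content and a change in the balance of arms cannot be told apart. Markers of muscle, blood and fibroblasts held at most 0.0904% each, with 1 marker each of muscle, blood, fibroblasts and liver having no entry. In such bulk RNA, fewer cells of a type and less RNA per cell cannot be told apart.

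The sequences of hairpins in which the arms traded places show what was counted. Mature sequences were found in RefSeq (GRCh38.p14) for 533 of the 594 miRNAs. The seed, bases 2 to 8, which pairs with target mRNAs, is in capitals; the arms of a hairpin have unrelated seeds. All 5p arms listed fell and all 3p arms rose in homozygous cells. The rise of let-7a-3p did not pass with all 8 libraries in the fit.
let-7a-5p: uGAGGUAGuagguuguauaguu
let-7a-3p: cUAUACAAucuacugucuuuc
miR-34a-5p: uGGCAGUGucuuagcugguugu
miR-34a-3p: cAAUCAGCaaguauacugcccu
miR-15a-5p: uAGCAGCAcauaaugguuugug
miR-15a-3p: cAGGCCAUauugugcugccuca
miR-20a-5p: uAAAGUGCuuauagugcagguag
miR-20a-3p: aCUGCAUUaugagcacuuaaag
miR-18a-5p: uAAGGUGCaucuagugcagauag
miR-18a-3p: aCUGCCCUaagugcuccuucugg
MIR34A lies at chr1:9151668-9151777 on the minus strand in an exon of the long non-coding gene MIR34AHG, MIR15A at chr13:50049119-50049201 on the minus strand in an exon of DLEU2, and MIR20A at chr13:91351065-91351135 and MIR18A at chr13:91350751-91350821 on the plus strand in exons of MIR17HG. MIRLET7A1, 1 of 3 loci that give let-7a-5p, lies at chr9:94175957-94176036 on the plus strand in an intron of AL158152.2 (host genes from GENCODE v29).

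The 4 hairpins below, written as RNA with both mature arms in capitals, are shown because their arms behaved differently. In miR-20a and miR-34a the balance moved to the 3p arm, and in miR-302c both arms fell together (and were slightly higher under upper-quartile scaling). In miR-135a both arms rose, the 3p arm from a low level of 2.34 and 5.13 to 60.4 and 58.9 RPM. The balance of miR-135a thus moved to the 3p arm as well (log2 change of the 3p/5p ratio 3.12). The rise of miR-135a-5p did not pass with all 8 libraries in the fit.
MIR20A: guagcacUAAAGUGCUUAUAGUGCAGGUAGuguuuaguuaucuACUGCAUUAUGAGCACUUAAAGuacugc
MIR34A: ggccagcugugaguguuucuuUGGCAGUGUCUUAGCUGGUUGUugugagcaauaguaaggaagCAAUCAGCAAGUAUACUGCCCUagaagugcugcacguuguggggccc
MIR302C: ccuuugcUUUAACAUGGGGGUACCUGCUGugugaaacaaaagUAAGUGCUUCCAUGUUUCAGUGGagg
MIR135A1: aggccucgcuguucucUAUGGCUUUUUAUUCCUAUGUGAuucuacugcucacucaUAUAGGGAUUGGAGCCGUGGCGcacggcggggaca
MIR302C lies at chr4:112648363-112648430 on the minus strand in an intron of AC106864.1, and MIR135A1 at chr3:52294219-52294308 on the minus strand in an intron of GLYCTK-AS1.

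In homozygous cells most 5p arms fell, and many 3p arms rose. Of 591 miRNAs with at least 5 RPM in at least 2 of the 4 libraries, limma called 368 (62.3% of those tested) at a Benjamini-Hochberg adjusted p under 0.05 on log2(RPM + 1), and a fold change is given on that scale. Of these, 214 fell (36.2%) and 154 rose (26.1%). On the 5p side, with 226 arms tested, there were 159 falls (70.4%) and 5 rises (median log2 fold change -2.29). On the 3p side, with 300 arms, there were 136 rises (45.3%) and 40 falls (13.3%; median 0.68). Over all 591 the median was -0.04. The groups of 2 libraries did not overlap in 481 of the 591 miRNAs (81.4%), including all 368 called.

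The number of calls depended on the libraries in the fit and on the scaling. With all 8 libraries in 1 fit, which adds the spread of the hemizygous and null pairs, 189 miRNAs passed, 130 down and 59 up, and all 189 were among the 368. In the hemizygous libraries the miRNA reads were 0.729 and 2.42 times the scaling total, and the null libraries held 165317 and 137655 miRNA reads. In that fit each miRNA was given the variance common to its level (prior degrees of freedom infinite). A miRNA that did not pass there is thus not shown to vary between its own 4 libraries. That fit called 111 falls (49.1%) and 1 rise of 5p arms and 56 rises (18.7%) and 12 falls (4%) of 3p arms. Leaving out homozygous library 1 or 2 left 240 and 245 calls, leaving out wild-type library 1 or 2 gave 383 and 416, and 226 of the 368 passed in each of these 4 fits. Upper-quartile scaling, which moved the median of all miRNAs up by 0.89, gave 282 rises and 166 falls in place of 154 and 214, and 14 called falls turned positive; among 5p arms it still gave 133 falls against 32 rises. Median-ratio scaling moved the median by 0.16.

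**Figure D1:**
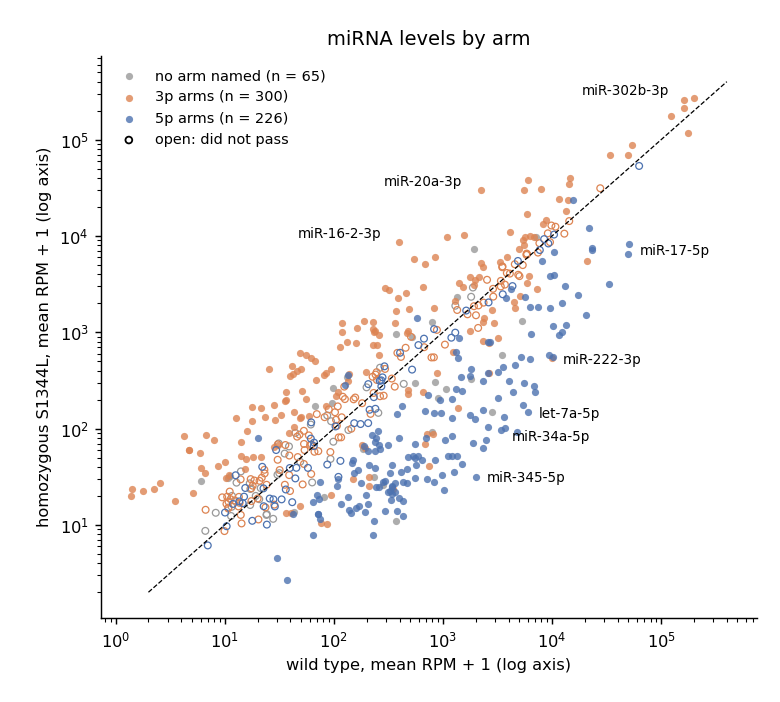
Mean RPM + 1 of each tested miRNA in wild-type (horizontal, log axis) and homozygous cells (vertical, log axis), n = 2 libraries each, coloured by the named arm; filled points passed the test, open points did not, and the dashed line marks equal levels. Most of the 226 5p arms lie below the line, and 3p arms such as miR-16-2-3p and miR-20a-3p lie far above it.

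The share of reads on 5p arms summarises this shift. Of the RPM of all miRNAs named 5p or 3p, 5p arms held 31.9% and 34.0% in wild-type cells and 11.2% and 10.6% in homozygous cells, with 95% Wilson intervals at most 0.114 points wide. The homozygous mean was 22.1 points lower, and the groups did not overlap. Without the 10 most abundant miRNAs the share went from 58.3% ± 1.14 to 20.9% ± 0.291 (SD, n = 2 each). For either share a two-sided exact permutation test returned p = 0.333, the smallest that 2 against 2 libraries allow. Among the 50 most abundant miRNAs of a library, 25 and 26 were 5p arms in the wild type and 10 and 10 in homozygous cells; among the top 20 the numbers were 9 and 10 against 2 and 2.

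The largest falls among miRNAs with a mean of at least 500 RPM in 1 genotype were all 5p arms. miR-345-5p had 1490.4 and 2549 RPM in the wild type and 42.4 and 19.2 in homozygous cells (log2 fold change -6.04 ± 0.43 SE, adjusted p = 6.98e-07). miR-7-5p, a repressor of growth-factor receptor signalling, had 5959 and 3646 RPM against 100.6 and 83.0 (-5.66 ± 0.32). let-7a-5p, the 1 let-7 5p arm tested, which promotes differentiation and represses LIN28, had 6638 and 5486 RPM against 159.9 and 135 (-5.35 ± 0.27). That the groups do not overlap was a condition of this choice. miR-34a-5p, a p53 target that restrains the cell cycle, had 3329 and 3527 RPM against 113 and 76.9 (-5.18 ± 0.30). The falls of miR-185-5p, miR-218-5p, miR-340-5p, miR-525-5p, miR-744-5p and miR-1296-5p ran from -5.49 to -5.01. All 10 passed with each library left out in turn and with all 8 libraries in the fit, and under upper-quartile scaling the smallest of the 10 falls was -4.11.

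The largest rises by the same rule were all 3p arms. miR-16-2-3p, the passenger of one of the miR-16 hairpins, had 289 and 495 RPM in the wild type against 9554 and 7915 (log2 fold change 4.52 ± 0.29 SE, adjusted p = 3.71e-07). miR-20a-3p, the passenger of a growth-promoting miR-17-92 hairpin, had 1702 and 2787 RPM against 31577 and 28576 (3.79 ± 0.24). With these levels miR-20a-3p entered the abundance range of the usual guides. miR-15a-3p had 114 and 122 RPM against 1408 and 1099 (3.38 ± 0.31), and miR-93-3p had 996 and 1197 against 10356 and 9192 (3.16 ± 0.22). The rises of miR-30d-3p, miR-219a-2-3p, miR-20b-3p, miR-498-3p, miR-1277-3p and miR-135b-3p lay between 3.14 and 3.71. Of these, miR-1277-3p differed most between the wild-type libraries, and its value was 2.48 without wild-type library 1 and 4.0 without wild-type library 2. All 10 rises passed in the fit of all 8 libraries and with each library left out in turn.

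**Figure D2:**
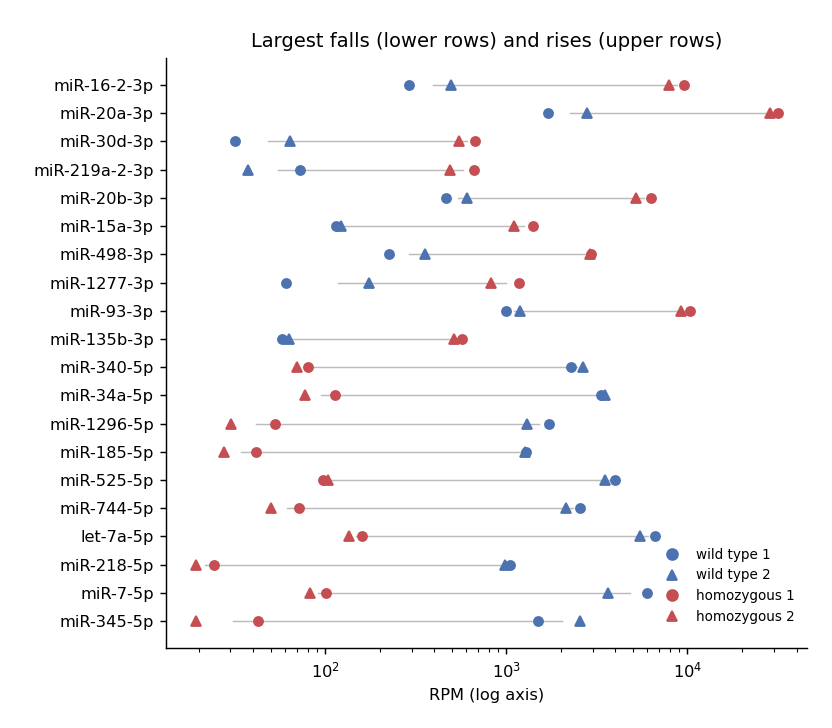
RPM (log axis) in each of the 4 libraries for the 10 largest falls (lower rows, all 5p arms) and the 10 largest rises (upper rows, all 3p arms); circles are replicate 1, triangles replicate 2, and grey lines join the group means. The 20 miRNAs were chosen among called ones whose groups do not overlap. The separation of blue wild-type and red homozygous points therefore follows from the choice.

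Within a hairpin the scaling of a library cancels, and there the shift to the 3p arm was the rule. Arms were paired by name, which pools the reads of all loci of an arm (3 for let-7a-5p, 2 for let-7a-3p). The log2 ratio of the arms, 3p RPM + 1 divided by 5p RPM + 1, could be tested in 186 hairpins with both arms in the table, and 157 passed (84.4%), 153 toward the 3p arm and 4 toward the 5p arm, with a median change of 3.31. With all 8 libraries in the fit 149 passed, 147 toward the 3p arm. In miR-15a the ratio was -5.96 and -5.75 in the wild-type and 2.40 and 2.36 in the homozygous libraries (change 8.24 ± 0.35 SE, adjusted p = 4.78e-09). In miR-34a it was -4.75 and -3.81 against 3.95 and 3.45 (change 7.98 ± 0.38). In both hairpins the sign turned, so that the passenger became the more abundant arm. In let-7a the ratio was -6.71 and -5.48 against 1.47 and 1.54 (change 7.60, and 6.98 to 8.22 with 1 wild-type library left out).

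Such turns were common and ran in 1 direction. Of 109 hairpins with more 5p than 3p RPM in both wild-type libraries, 50 had more 3p RPM in both homozygous libraries. Of 69 with more 3p RPM in both wild-type libraries, 0 had more 5p RPM in both homozygous libraries; 8 hairpins were mixed in the wild type. The 3p arm was the larger in 71 and 75 of the 186 hairpins in the wild-type libraries and in 128 and 131 in the homozygous libraries. Among hairpins with at least 500 RPM in each genotype, the largest changes after miR-15a, miR-34a and let-7a were those of miR-340 (7.20), miR-20b (7.03), miR-99b (7.01), miR-182 (6.98), miR-339 (6.89), miR-20a (6.71) and miR-425 (6.47). The changes of the 2 arms had a Spearman correlation of 0.10 over 185 hairpins, which share their libraries and their scaling.

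**Figure D3:**
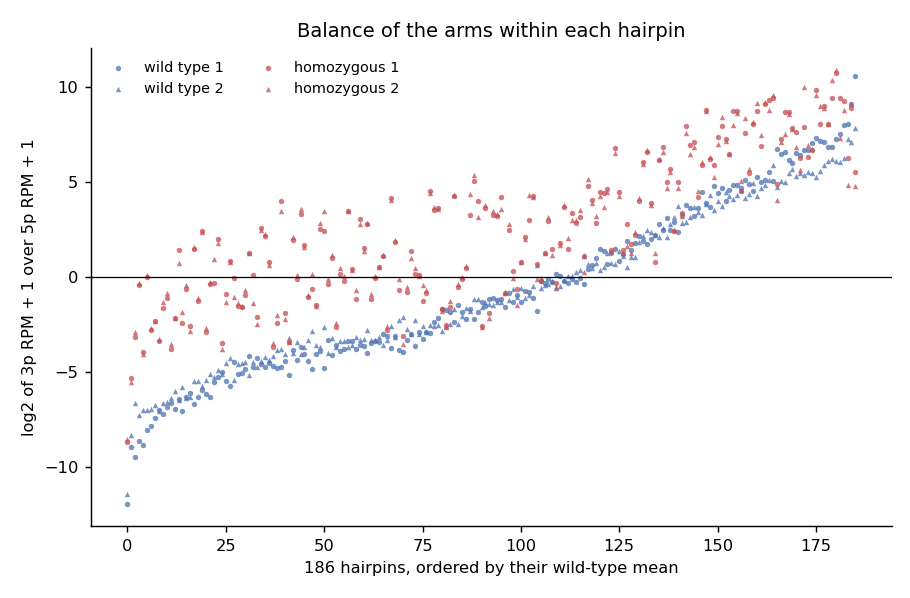
Log2 ratio of 3p RPM + 1 to 5p RPM + 1 in each of the 4 libraries (points) for 186 hairpins, ordered from left to right by the mean ratio in the wild type; the line at 0 marks equal arms. Red homozygous points lie above blue wild-type points over nearly the whole range, with the widest distance among hairpins that are 5p-rich in the wild type.

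In some abundant hairpins the ratio changed little. The smallest changes among hairpins with at least 500 RPM in each genotype were those of miR-519d (0.00 ± 0.52), miR-874 (0.14), miR-455 (0.19), miR-532 (-0.21), miR-302c (0.23 ± 0.31), miR-769 (-0.36), miR-367 (0.44 ± 0.62) and miR-141 (0.52), none of which passed, and miR-652 (0.86) and miR-302a (0.86), which passed, though not with all 8 libraries in the fit and, of the 4 fits with 1 library left out, only without wild-type library 1. A ratio that did not pass is not shown to be equal. In miR-455 both arms fell, miR-455-3p from 3164 and 3250.4 to 1006 and 729.7 RPM, and in miR-874 likewise, miR-874-3p from 2697 and 2576 to 827 and 726 RPM. In miR-532 both arms rose, miR-532-3p from 484 and 474 to 1145 and 906 RPM. None of these 6 arms passed with all 8 libraries in the fit.

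The sum of both arms fell more often than it rose. Of the 186 hairpins, 121 passed for the sum (65.1%), 89 down and 32 up, with a median of -0.42. The sum depends on the scaling: the split was 86 down and 54 up with median-ratio scaling and 47 down and 90 up with upper-quartile scaling. The fit of all 8 libraries called 19 sums, all of them falls. miR-744 had 2750.4 and 2356 RPM in the wild-type and 103 and 80.5 in the homozygous libraries (-4.79 ± 0.27 SE), and miR-222 had 9792 and 10807 against 629 and 487 (-4.21 ± 0.23). For let-7a the sum was 6699.9 and 5608 against 604 and 529 (-3.44), so the rise of let-7a-3p made up for a small part of the loss of let-7a-5p. For miR-20a the sum was 47789 and 55533 against 38662 and 34517 (-0.50; 0.41 under upper-quartile scaling) and for miR-31 7368 and 8433 against 11323 and 10049 (0.44), a smaller change than that of either arm. These 2 sums did not pass with all 8 libraries in the fit; with 1 library left out miR-20a passed only without wild-type library 1 and miR-31 in 0 of 4 fits.

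The cluster of miR-302 and miR-367, which marks pluripotent cells and lies on chromosome 4, stayed at the top of the set. Its 5 guides are 3p arms and were the 5 most abundant miRNAs of each genotype. miR-302a-3p had 160620.0 and 162565 RPM in the wild-type and 264199 and 248488 in the homozygous libraries (log2 fold change 0.67 ± 0.10 SE, adjusted p = 1.78e-04). miR-302b-3p (0.43), miR-302d-3p (0.52) and miR-367-3p (0.40) rose as well, while miR-302c-3p fell from 177922 and 174871 to 122981 and 108875 RPM (-0.61 ± 0.11). None of the 5 passed with all 8 libraries in the fit (adjusted p from 0.569 to 0.743), and the fall of miR-302c-3p turned to 0.30 under upper-quartile scaling. miR-302b-5p had 7817 and 15122 RPM against 1116 and 759.8 (-3.56) and miR-302d-5p 3545 and 4481 against 343 and 286 (-3.66). miR-302a-5p, the most abundant 5p arm of the wild type, had 47338 and 78360.2 against 57389 and 49297 RPM with overlapping groups and did not pass (-0.20; 0.71 under upper-quartile scaling). miR-302c-5p had 18579.8 and 24870.1 against 12215 and 11792 (-0.84; 0.06 under upper-quartile scaling), a fall that did not pass with all 8 libraries in the fit. Neighbouring hairpins of 1 transcript thus differed in what their 5p arms did.

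The cluster of miR-371a, miR-372 and miR-373 on chromosome 19, also characteristic of embryonic stem cells, rose on its 3p arms. miR-372-3p had 14116 and 14846 RPM against 40265 and 38843 (log2 fold change 1.45 ± 0.15 SE, adjusted p = 8.22e-06), miR-373-3p changed by 1.29 and miR-371a-3p by 1.95, and all 3 passed with each library left out. They did not pass with all 8 libraries (adjusted p from 0.0530 to 0.236), nor did the following fall. miR-371a-5p fell from 8347 and 11002 to 4417 and 3201 RPM (-1.35), and of the 3 5p arms of the cluster it alone passed. Over all arms 70.4% of 5p arms fell and 45.3% of 3p arms rose.

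In the miR-17-92 cluster and its paralogs, which promote proliferation, 12 of 14 5p arms fell and 12 of 13 3p arms rose, beside 70.4% of all 5p arms and 45.3% of all 3p arms. miR-17-5p had 46792 and 53687 RPM in the wild-type and 9229.9 and 7285 in the homozygous libraries (log2 fold change -2.61 ± 0.17 SE, adjusted p = 4.17e-07). miR-18a-5p had 31624 and 35638 against 3534 and 2874 (-3.40) and miR-20a-5p 46087 and 52747 against 7085 and 5941 (-2.93). These 5p guides left the group of the most abundant miRNAs. Their partners took the opposite course: miR-18a-3p went from 6104 and 5949.7 to 39803 and 35831 RPM (2.65) and miR-17-3p from 5258 and 5866 to 32083 and 27411 (2.42). The 3p guides rose by less, miR-19a-3p by 1.02, miR-19b-3p by 0.69 and miR-92a-3p by 0.46. The last 2 are each made from 2 loci, so their reads cannot be assigned to 1 transcript. In the fit of all 8 libraries 8 of the 5p falls and 6 of the 3p rises passed, and the rises of the miR-19 and miR-92a guides did not.

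The miR-15/16 family, which restrains the cell cycle and represses BCL2, held a wide range among its guides. miR-15a-5p had 7211 and 6619.6 RPM in the wild-type and 266 and 213 in the homozygous libraries (log2 fold change -4.85 ± 0.25 SE, adjusted p = 2.59e-07). miR-16-5p had 23001 and 23656 against 7575 and 6687 (-1.71), which did not pass with all 8 libraries in the fit. miR-15b-5p had 9188 and 9307 against 9021 and 7694 and did not pass (-0.15 ± 0.18; 0.01 with median-ratio and 0.75 with upper-quartile scaling). miR-15a-5p and miR-15b-5p share the seed; the first was nearly lost, and no change of the second was detectable. Of the 7 5p arms of the family 4 fell and 0 rose (median -0.73, beside -2.29 and 70.4% falls over all 5p arms). All 7 3p arms rose, by 2.18 to 4.52 (median 2.96, beside 0.68 and 45.3% rises over all 3p arms). In the fit of all 8 libraries 2 of the falls and 5 of the rises passed. The shift toward the 3p arm passed in all 5 hairpins of the family that could be paired, beside 82.3% of all 186 hairpins.

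The chromosome 19 cluster, a primate-specific array of related hairpins active in stem cells and placenta, was measured on 28 5p and 31 3p arms. Of 28 5p arms 23 fell and 0 rose (median -3.35), and of 31 3p arms 11 rose and 2 fell (median 0.11). Over all arms 70.4% of 5p arms fell, and 45.3% of 3p arms rose and 13.3% fell. With all 8 libraries in the fit 20 of the falls of 5p arms and 3 of the rises of 3p arms passed, that of miR-512-3p and the falls of 3p arms not among them. miR-525-5p had 3959.7 and 3492 RPM against 97.4 and 103 (-5.20 ± 0.28), and miR-515-5p 10242 and 9962 against 1201 and 1128 (-3.12). The 5 5p arms that did not pass were those of miR-512, miR-498, miR-520a, miR-519d and miR-520f. miR-512-5p had 8042 and 7414 against 7159 and 7124 RPM (-0.11 ± 0.18; 0.79 under upper-quartile scaling), while its partner miR-512-3p went from 6473 and 5413 to 17024 and 16941 (1.52). miR-498-3p rose most among the 3p arms of the cluster (3.36), and miR-526b-3p (-1.08) and miR-519c-3p (-0.86; 0.04 under upper-quartile scaling) fell. Members of the cluster resemble each other closely, and the counting of reads that fit several of them is not described in the sources used here.

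In other families too the falls of 5p guides differed in size. The counts below stand beside 70.4% falls over all 5p arms and 45.3% rises over all 3p arms. In the miR-181 family 2 of 3 3p arms rose and all 4 5p arms fell, from -4.68 for miR-181a-5p to -2.52 for miR-181b-5p. The miR-99/100 and miR-125 group, which is clustered with let-7, had 4 falls among 4 5p arms, from -4.73 for miR-99b-5p to -1.30 for miR-125a-5p, and all 4 of its 3p arms rose. miR-182-5p and miR-183-5p fell by 4.21 and 4.22 and their neighbour miR-96-5p by 1.42, and their 3 3p arms rose. The falls of miR-96-5p, miR-100-5p, miR-125a-5p and miR-21-5p did not pass with all 8 libraries in the fit. In the miR-30 family miR-30c-5p had 13102 and 13486 RPM against 1323 and 1079.6 (-3.47 ± 0.21), whereas miR-30e-5p had 9956 and 10917 against 11205 and 9484 and did not pass (-0.02 ± 0.18; 0.15 with median-ratio and 0.89 with upper-quartile scaling). All 6 3p arms of the miR-30 family rose. With all 8 libraries in the fit 18.7% of all 3p arms rose. Of the 3p arms, 4 of these 6 rose there, and 3 of 4 in the miR-99/100 and miR-125 group. In the cluster of miR-183, miR-96 and miR-182 it was 2 of 3, and in the miR-181 family 1 of 3. Both miR-26 guides fell, miR-26a-5p by 2.11 and miR-26b-5p by 2.91, and miR-21-5p, a widespread growth-promoting miRNA, went from 19384 and 27299 to 8389 and 6702 RPM (-1.62). Among 3p guides of the miR-200 family, which maintains the epithelial state, 2 of 4 rose (miR-200c-3p by 0.74 and miR-200b-3p by 1.04). Neither passed with all 8 libraries in the fit. miR-429, of the same family, fell (-1.49), but not with all 8 libraries in the fit or without homozygous library 2, and neither of the 2 5p arms of the family passed.

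Among miRNAs linked to p53, which restrain growth, 5 of 6 5p arms fell and 4 of 5 3p arms rose, beside 70.4% and 45.3% over all arms, and 3 and 3 of them passed with all 8 libraries in the fit. miR-34c-5p had 389 and 337 RPM in wild-type and 22.2 and 19.2 in homozygous cells (-4.07 ± 0.38). Its neighbour on the same transcript, miR-34b-5p, had 294 and 249.8 RPM against 333 and 214 with overlapping groups and did not pass (-0.02; 0.88 under upper-quartile scaling). The 3p arms of miR-34a, miR-34b and miR-34c rose by 2.80, 2.60 and 3.20. In the group of miR-21, miR-31, miR-221 and miR-222, which are raised in many tumours, all 4 5p arms fell, and of 4 3p arms 2 rose and 1 fell; 3 of the 5p falls, 1 of the rises and the 3p fall passed with all 8 libraries in the fit. miR-31 changed its main arm: miR-31-5p went from 6179.8 and 6479 to 572 and 487 RPM (-3.58) and miR-31-3p from 1188 and 1953 to 10751 and 9562 (2.73). Among miR-26 and miR-101, which repress the chromatin enzyme EZH2, 3 of 3 5p arms fell and 3 of 4 3p arms rose, and 3 and 2 of them passed with all 8 libraries in the fit. The 3p guide miR-101-3p went from 9975 and 13082 to 26615 and 21566 RPM (1.07), which did not pass with all 8 libraries in the fit.

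In families whose guides are 3p arms the guides moved in both directions, beside 13.3% falls and 45.3% rises over all 3p arms. Of all 5p arms 70.4% fell. Of the 3p arms of miR-23, miR-27 and miR-24, which form joint clusters, 3 of 5 fell and 1 rose: miR-23b-3p had 2897 and 2954 RPM against 1398 and 1114 (-1.23) and miR-24-3p 6832 and 6933 against 10132 and 9439.6 (0.51), and of 4 5p arms 1 fell. In the miR-29 family, which represses collagens and DNA methyltransferases, 2 of 3 3p arms and 1 of 2 5p arms fell; miR-29b-3p had 5991 and 6222 against 4349 and 3394 RPM (-0.67; 0.24 under upper-quartile scaling). In the miR-148 and miR-152 family both 5p arms fell and 1 of 3 3p arms rose, miR-148b-3p by 0.68. None of these 3p calls passed with all 8 libraries in the fit. The miR-33 family, encoded in introns of the SREBF genes of sterol metabolism, has 5p guides, and no change of them was called: miR-33a-5p had 7616 and 9309.6 RPM against 9664 and 8889 with overlapping groups and did not pass (0.14 ± 0.19). Its 3p arms both rose, miR-33a-3p by 1.56 and miR-33b-3p by 3.76 (2.27 and 5.26 without wild-type library 1 or 2, between which it differed most). Of these rises miR-33a-3p did not pass with all 8 libraries in the fit, and without homozygous library 1 neither passed; without homozygous library 2 miR-33b-3p did not pass. In the miR-320 and miR-484 group, whose precursors include some made without Drosha, miR-320a-3p, miR-320b, miR-320c and miR-484 all fell, by 1.36 to 4.23, and of these the fall of miR-484 passed with all 8 libraries in the fit.

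**Figure D4:**
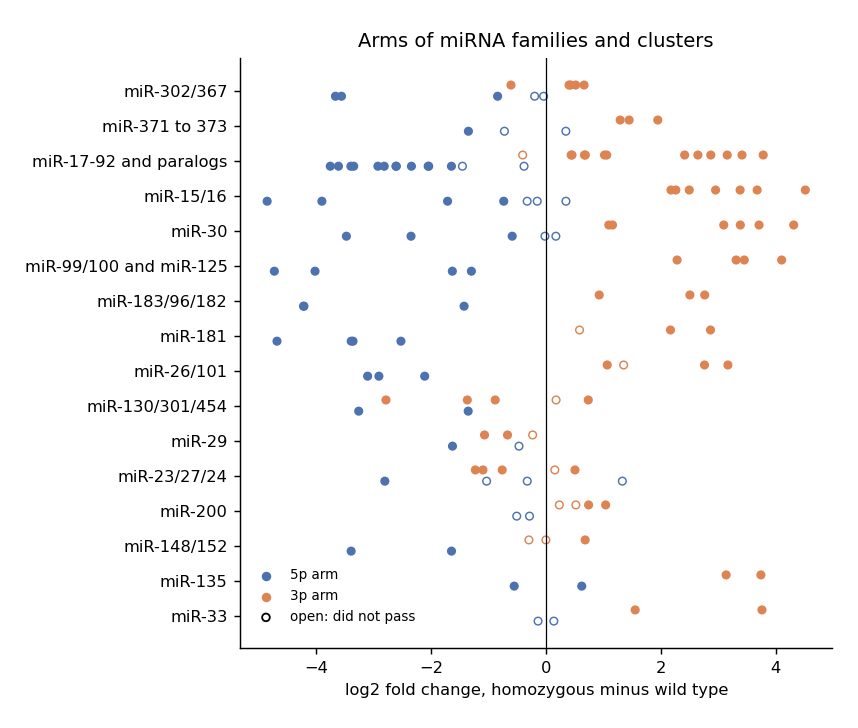
Log2 fold change of each measured 5p (blue) and 3p arm (orange) in 16 families and clusters, with filled points past the test and open points not; the vertical line marks no change. In the miR-15/16 and miR-30 families the 5p arms spread from the far left to just right of the line, while all their 3p arms lie to its right.

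Exceptions to the direction of the arms were few on the 5p side. The 5 5p arms that rose were miR-135a-5p, miR-320a-5p, miR-532-5p, miR-561-5p and miR-653-5p. miR-135a-5p had 13649 and 17319 RPM in the wild-type and 25292 and 22212 in the homozygous libraries (log2 fold change 0.62 ± 0.17 SE, adjusted p = 0.00916), while miR-135b-5p fell (-0.55; 0.35 under upper-quartile scaling). miR-532-5p had 445 and 717 RPM against 1452 and 1336 (1.30), miR-653-5p rose by 1.49 and miR-561-5p by 1.18. miR-320a-5p had 3.11 and 35.1 RPM against 68.8 and 87.8 (2.69 ± 0.83), and without wild-type library 1 its value was 1.13. None of the 5 passed without homozygous library 1 or without homozygous library 2, and with all 8 libraries in the fit miR-320a-5p passed and the other 4 did not, nor did miR-135b-5p. The sequences of 4 of them follow, with the seed in capitals.
miR-135a-5p: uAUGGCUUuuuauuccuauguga
miR-532-5p: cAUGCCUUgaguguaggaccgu
miR-561-5p: aUCAAGGAucuuaaacuuugcc
miR-653-5p: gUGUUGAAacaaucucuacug
MIR532 lies at chrX:50003148-50003238 (plus strand, intron of CLCN5), MIR561 at chr2:188297492-188297588 (plus strand, intron of GULP1) and MIR653 at chr7:93482760-93482855 (minus strand, intron of CALCR).

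Falls among 3p arms were more frequent, 40 of 300, and 37 of them had at least 50 RPM in the wild type. miR-222-3p, which represses the cell-cycle inhibitor CDKN1B, had 9700.3 and 10415 RPM in the wild-type and 609 and 459 in the homozygous libraries (log2 fold change -4.25 ± 0.24 SE, adjusted p = 2.59e-07), whereas miR-221-3p from the same transcript had 8465 and 11268 against 14409 and 11289 and did not pass (0.39 ± 0.20). miR-1180-3p had 644 and 852 against 43.4 and 36.1 (-4.19), and miR-1301-3p, miR-324-3p, miR-887-3p and miR-1307-3p fell by 3.87, 3.32, 3.23 and 3.06. In each of these arms the groups lay far apart. miR-103a-3p had 19999 and 21702 against 6279 and 4758 (-1.93) and its near-identical paralog miR-107 826 and 976 against 235 and 177 (-2.13), and reads of the pair may be hard to tell apart. In the family of miR-130, miR-301 and miR-454, which shares 1 seed, miR-301b-3p fell by 2.78, miR-301a-3p by 1.37 and miR-454-3p by 0.88 (0.02 for the last under upper-quartile scaling), while miR-130b-3p rose by 0.74 and miR-130a-3p, the most abundant, was at 0.18 and did not pass. The fit of all 8 libraries called 12 falls of 3p arms, those of miR-103a-3p, miR-301a-3p and miR-454-3p not among them, and neither the fall of miR-107 nor the rise of miR-130b-3p. The sequences show how close the members of these groups are.
miR-301a-3p: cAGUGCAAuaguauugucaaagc
miR-301b-3p: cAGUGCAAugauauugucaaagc
miR-454-3p: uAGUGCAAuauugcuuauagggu
miR-103a-3p: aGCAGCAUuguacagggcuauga
miR-107: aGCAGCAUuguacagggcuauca
miR-222-3p: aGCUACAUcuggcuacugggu
miR-1180-3p: uUUCCGGCucgcgugggugugu
MIR301A at chr17:59151136-59151221 and MIR454 at chr17:59137758-59137872 lie on the minus strand in introns of SKA2, MIR103A1 at chr5:168560896-168560973 in an intron of PANK3, MIR107 at chr10:89592747-89592827 in an intron of PANK1, MIR222 at chrX:45747015-45747124 in an intron of MIR222HG and MIR1180 at chr17:19344506-19344574 in an intron of B9D1, all on the minus strand.

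The 4 hairpins whose ratio moved toward the 5p arm were miR-320a, miR-23a, miR-203b and miR-876. In miR-320a, whose precursor arises without Drosha, the ratio was 10.57 and 7.84 in the wild-type and 5.52 and 4.79 in the homozygous libraries (-4.05 ± 0.86 SE, adjusted p = 8.27e-04), and leaving out a wild-type library gave -2.68 and -5.41. In miR-23a it was 8.03 and 7.24 against 6.25 and 4.83 (-2.09), and -2.81 and -1.38 with homozygous library 1 or 2 left out, when it did not pass. In both hairpins the 5p arm is rare and the 3p arm fell, miR-320a-3p by 1.36 and miR-23a-3p by 0.76 (0.14 for the latter under upper-quartile scaling). For miR-203b the change was -1.19 and for miR-876 -1.16. In the fit of all 8 libraries the ratios of miR-320a and miR-23a passed, and those of miR-203b and miR-876 and the falls of miR-320a-3p and miR-23a-3p did not. With 1 library left out, miR-23a passed only without wild-type library 2, miR-320a was lost without homozygous library 2, miR-203b without homozygous library 1 and miR-876 without either homozygous library.

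Of 65 miRNAs whose name gives no arm, 15 fell (23.1%, beside 36.2% of all miRNAs) and 13 rose (beside 26.1%). Their side of the hairpin was read from RefSeq: of 21 on the 5p side 6 fell and 5 rose, of 32 on the 3p side 8 fell and 5 rose, and 12 could not be placed. The largest falls lay on the 5p side: miR-3943 had 371 and 367.05 RPM against 11.7 and 8.42 (log2 fold change -5.08 ± 0.41 SE, adjusted p = 1.88e-06), and miR-484, another hairpin made without Drosha, 2800.2 and 2800.3 against 157 and 139 (-4.23 ± 0.27). miR-451a, which is matured by Argonaute 2 and not by Dicer, went from 280.3 and 457 to 1055 and 855 RPM (1.41 ± 0.32, adjusted p = 0.00297), a rise that did not pass with all 8 libraries in the fit or without homozygous library 1 or 2. Of 2 mirtrons measured, whose precursors come from spliced introns, 1 fell, miR-1227-3p (-3.21), and 1 rose, miR-1237-3p (1.48, not past the test with all 8 libraries).

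Since targets are recognised by the seed, reads were added over miRNAs with the same bases 2 to 8, for the 533 miRNAs with a sequence, which held 95.1% to 95.6% of reads. Of 420 seed families 248 passed (59.0%), 33.6% down and 25.5% up, and under upper-quartile scaling 26.1% of 421 fell and 48.5% rose. Of 153 families with 5p members only, 69.9% fell and 3 rose (median -2.02), and of 204 with 3p members only, 92 rose and 21 fell (median 0.83). With all 8 libraries in the fit 127 passed, and without homozygous library 1 or 2 there were 150 and 154. The seeds of the miR-17 and miR-302 families are shown with members of each, since they differ by a shift of 1 base and the families moved in opposite directions.
miR-17-5p: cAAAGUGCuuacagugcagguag
miR-93-5p: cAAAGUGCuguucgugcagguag
miR-106b-5p: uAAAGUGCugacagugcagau
miR-526b-3p: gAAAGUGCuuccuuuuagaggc
miR-519d-3p: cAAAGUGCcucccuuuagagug
miR-302a-3p: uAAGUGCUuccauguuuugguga
miR-302b-3p: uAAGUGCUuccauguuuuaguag
miR-302c-3p: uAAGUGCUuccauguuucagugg
miR-372-3p: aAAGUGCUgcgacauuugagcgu
miR-373-3p: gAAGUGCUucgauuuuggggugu
The seed AAAGUGC is that of the first 5 sequences and AAGUGCU that of the last 5. MIR106B lies at chr7:100093993-100094074 on the minus strand in an intron of MCM7. MIR302A (chr4:112648183-112648251), MIR302B (chr4:112648485-112648557) and MIR302C are on the minus strand within AC106864.1, and MIR372 (chr19:53787890-53787956), MIR373 (chr19:53788705-53788773), MIR519D (chr19:53713347-53713434) and MIR526B (chr19:53694393-53694475) are on the plus strand outside any annotated host gene.

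The family with seed AAAGUGC, 8 miRNAs led by miR-17-5p and miR-20a-5p, had 157086 and 188777 RPM in the wild-type and 32867 and 28078 in the homozygous libraries (log2 fold change -2.50 ± 0.16 SE, adjusted p = 4.23e-07). Its share of all miRNA reads went from 7.81% ± 0.403 to 1.32% ± 0.0480 (SD, n = 2 each). Within it the 6 5p members fell, miR-526b-3p fell by less (-1.08) and miR-519d-3p, at 5106 and 6545 against 6548 and 6189 RPM, did not pass (0.14 ± 0.20). The family with seed AAGUGCU, 12 miRNAs led by the miR-302 guides, had 703129 and 709804 RPM against 946793 and 874398 (0.37 ± 0.11, adjusted p = 0.0177) and 32.1% ± 2.29 against 39.6% ± 0.741 of reads. The rise of this family did not pass with all 8 libraries in the fit, and the fall of the first did (adjusted p = 0.00769).

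Other seeds that fell with their 5p arms were those of miR-18a and miR-18b (-3.39), miR-26a and miR-26b (-2.21), miR-302b-5p and miR-302d-5p (-3.59), and miR-21-5p (-1.65). The miR-15/16 seed AGCAGCA, carried by 6 miRNAs, had 44487 and 44388 RPM against 20802 and 17731 (-1.21 ± 0.17), a smaller fall than that of miR-15a-5p alone. The sum of miR-30a-5p, miR-30c-5p and miR-30e-5p fell by 1.09; it leaves out miR-30b-5p (0.17 on its own, not past the test) and miR-30d-5p (-0.59; 0.32 under upper-quartile scaling), members of the miR-30 family without a matched sequence. The sums of the miR-15/16 seed, of these 3 miR-30 miRNAs and of the miR-21-5p seed did not pass with all 8 libraries in the fit. Among seeds that rose, that of miR-19a-3p and miR-19b-3p had 81613 and 95745 RPM against 162207 and 151287 (0.83, not past the test with all 8 libraries in the fit), and those of the former passengers miR-20a-3p, miR-18a-3p and miR-17-3p rose by 3.79, 2.65 and 2.42. Each of these 3 passengers held between 1.29% and 1.64% of reads in homozygous cells, near the share left to the whole AAAGUGC family.

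**Figure D5:**
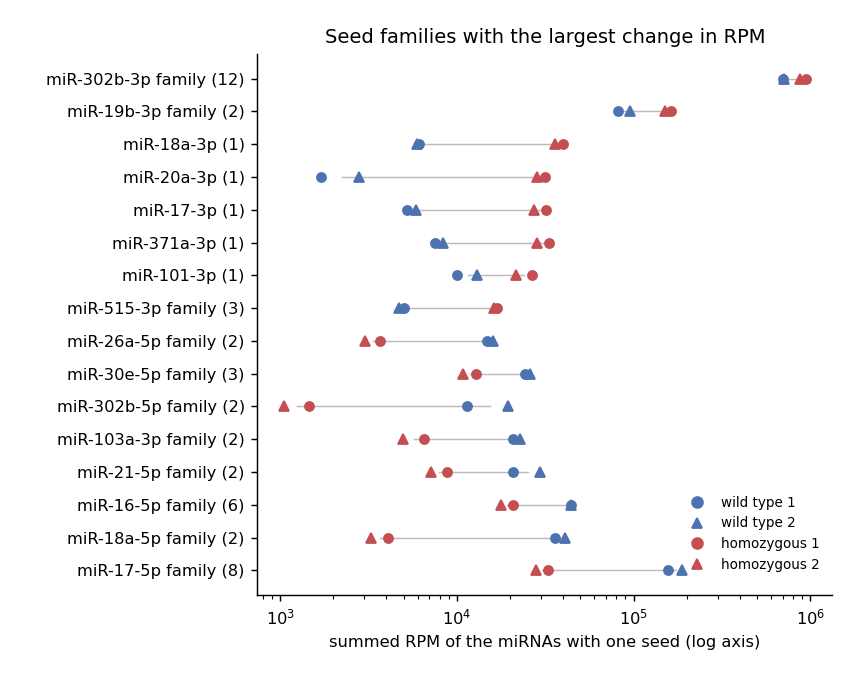
Summed RPM (log axis) of miRNAs that share a seed in each of the 4 libraries, for the 8 families with the largest rise (upper rows) and the 8 with the largest fall in RPM (lower rows) among those past the test; a family is named by its most abundant member, with the number of summed members in parentheses. The miR-17-5p family lies at 157086 RPM or more in the wild type and at 32867 or less in homozygous cells, and the 12-member miR-302b-3p family stayed the largest in every library.

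What the hairpins with a strong or weak shift share was read from RefSeq for 162 hairpins with both arms, as a description without a test. Where the 5p arm starts with U the median shift toward the 3p arm was 4.0 (72 hairpins), against 2.83 for A (38), 3.11 for C (40) and 2.05 for G (12). Hairpins with 18 to 20 bases between the arms had a median shift of 4.21 (25 hairpins) and those with 21 or more 4.90 (13). All 25 and all 13 passed toward the 3p arm, beside 138 of all 162 (85.2%). The order was not even: the median was 3.40 with at most 13 bases (21), 2.62 with 14 or 15 (45) and 3.07 with 16 or 17 (58). The Spearman correlation of this distance with the shift was 0.20 over the 162 hairpins, and those of the GC content of the 5p and 3p arms were -0.09 and 0.15. Hairpins share libraries, and relatives within a cluster share sequence, so these points are not independent. Some arms made from several loci also enter repeatedly with the same reads, such as miR-16-5p, paired with both miR-16-1-3p and miR-16-2-3p.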

How the data were processed

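Total RNA of H1 cells was made into small RNA libraries with spike-ins, ligated linkers, gel selection by size and PCR, and sequenced as single reads, per the labels' protocols. Library PCR without molecular identifiers means that intervals and limits cover counting error only. The submitters' processing notes name cutadapt, limma and the genome build hg38; the aligner, the rule for reads that fit several miRNAs, the annotation and the scaling remain not given in the sources used here. Deposited by the authors were log2 values of RPM, and each was a whole number of reads plus an offset, divided by a total per library. They were turned back into RPM and reads, although the planned tests had assumed a table of RPM. The members, lists, tests and alternatives were chosen with earlier results of these data known. Tests used limma 3.58.1 (R 4.3.3) on log2(RPM + 1) with a trended prior and group means over the 4 libraries, keeping miRNAs that reached 5 RPM in 2 or more libraries, with Benjamini-Hochberg adjustment over all features of a comparison and a threshold of 0.05. The 3p/5p ratio, the sum of both arms and the sum over a seed were fitted likewise. The code was tested on simulated data. Described were the 10 largest falls and rises among called miRNAs with groups that do not overlap and at least 500 RPM in 1 genotype. Also described were the 10 most abundant miRNAs of each genotype, up to 5 members of each of 24 family lists and the exceptions in direction. The 8 seed families with the largest fall and rise in RPM and the hairpins with the largest and smallest change in ratio were described as well. miR-302c-5p, miR-302d-5p, miR-512-5p, miR-515-5p, miR-519d-3p and miR-3943 were added after their values were seen. Pairing the arms by RefSeq hairpins was an alternative chosen after seeing the data. Other alternatives were pseudocounts, filters, scalings, a fit of the reads with limma-voom, leaving out each library, a block for the replicate number and a fit of all 8 libraries.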

Additional observations from a re-analysis of the deposited data

How the results depend on the processing

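With 2 libraries per group, the calls depend on the fit and the levels on the scaling. For the 3p/5p ratio 157 hairpins passed, 149 with all 8 libraries in the fit, between 137 and 165 with 1 library left out and 87.0% of 162 when arms were paired by RefSeq hairpins, an alternative chosen after seeing the data. With all 8 libraries 189 miRNAs, 19 hairpin sums and 127 seed families passed in place of 368, 121 and 248. With 1 library left out the counts ran from 240 to 416 miRNAs, from 85 to 105 sums and from 150 to 293 seed families; the lone library of a group is then assumed to vary like the others. The difference in 5p share was -37.42 points without the 10 most abundant miRNAs and -26.93 as a mean over hairpins, against -22.05. The differences of equal replicate numbers had a correlation of -0.0062. Resting on 1 pair of libraries per group, it cannot tell whether the numbers pair the libraries. With a replicate block 343 miRNAs, 159 ratios, 93 sums and 237 seed families passed, and the share differed by -20.7 and -23.4 points within replicates 1 and 2.

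Among 189 named results, 2406 of 2720 values under the alternatives kept direction and call, 246 lost the call, 22 gained it and 46 changed sign; the cause was not tested. Under upper-quartile scaling the changed signs were miR-302c-3p 0.30, miR-302a-5p 0.71, miR-520f-3p 0.76, miR-15b-5p 0.75, miR-424-5p 0.17, miR-34b-5p 0.88, miR-23a-3p 0.14, miR-30e-5p 0.89, miR-30d-5p 0.32, miR-29b-3p 0.24, miR-29a-3p 0.67, miR-29b-1-5p 0.38, miR-454-3p 0.022, miR-148a-3p 0.61, miR-135b-5p 0.35, miR-33b-5p 0.77, miR-519c-3p 0.044, miR-140-3p 0.12 and miR-331-3p 0.23. Under median-ratio scaling they were miR-520f-3p 0.016, miR-15b-5p 0.011, miR-34b-5p 0.14, miR-30e-5p 0.15 and miR-33b-5p 0.025. miR-152-3p was -0.059 when scaled to miRNA reads and -0.0011 with limma-voom. With 1 library left out, signs turned within these ranges: miR-302a-5p -0.56 to 0.17, miR-373-5p -0.055 to 0.75, miR-520f-3p -0.29 to 0.0022, miR-34b-5p -0.34 to 0.30, miR-30e-5p -0.14 to 0.10, miR-29b-1-5p -1.63 to 0.70, miR-152-3p -0.11 to 0.11, miR-33a-5p -0.0064 to 0.28, miR-33b-5p -1.14 to 0.87, miR-519d (ratio) -0.46 to 0.47, miR-874 (ratio) -0.12 to 0.40, miR-532 (ratio) -0.57 to 0.15, miR-769 (ratio) -0.79 to 0.070, miR-367 (ratio) -0.34 to 1.23 and miR-141 (ratio) -0.052 to 1.09.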
